A study of Mus musculus with 2 samples.

Results

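Mir143, Mir145a and Mir145b are the mouse genes of the miR-143 and miR-145 microRNAs, found by gene symbol as 3 of the 2202 microRNA genes in the count tables. MicroRNA-seq, which sequences small RNAs after ligation of adapters, measured total RNA of gastrocnemius, a calf muscle of the hindlimb, with inserts under 30 nt. The mice were B6CASTF1/J males, adult and 18 to 20 months old, an F1 hybrid with C57BL/6J and CAST/EiJ parents. All samples form a single group with biological replicates 2 and 1, and no treatment or other tissue is named. They named separate biosamples under the same donor entry and did not say whether separate animals were used. P-values therefore measured only differences between these libraries, which may be technical.

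MicroRNAs are short RNAs that guide repression of messenger RNAs through pairing with their seed, bases 2 to 8 of the mature strand. In mice, miR-143 and miR-145 are processed from a common primary transcript driven by serum response factor and myocardin. They are known from the contractile state of vascular smooth muscle, where they repress regulators of dedifferentiation such as Klf4 and Elk1. In skeletal muscle the cells known for them are smooth muscle cells and pericytes, the mural cells of vessels, with expression also known in fibroblasts. In whole muscle, the number of such cells and the amount of each microRNA per cell cannot be told apart.

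Mir143 and Mir145a are set below against microRNAs of other cell types and against other regulators of smooth muscle state. The mature strands that bear on those comparisons are shown from RefSeq (GRCm38.p6), 5′ to 3′, with the seed in capitals. The first 2 share a seed, GCUACAU, and belong to regulators of smooth muscle proliferation.
miR-221-3p: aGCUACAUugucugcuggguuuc
miR-222-3p: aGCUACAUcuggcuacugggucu
The next 2 are each identical at 2 loci (miR-24-3p from Mir24-1 and Mir24-2, miR-26a-5p from Mir26a-1 and Mir26a-2), so reads of these strands cannot be placed at a single locus by sequence.
miR-24-3p: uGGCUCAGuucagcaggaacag
miR-26a-5p: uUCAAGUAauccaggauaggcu
The last 3 have 1 locus each in the RefSeq table: miR-21a-5p of growing smooth muscle, the endothelial miR-126a-3p and the skeletal muscle miR-206-3p.
miR-21a-5p: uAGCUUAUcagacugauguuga
miR-126a-3p: uCGUACCGugaguaauaaugcg
miR-206-3p: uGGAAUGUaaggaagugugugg

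The tables gave 2156222 counts assigned to microRNA genes in replicate 2 and 4442692 in replicate 1. Assigned reads were 19.8% of those in the table of replicate 2 and 15.7% in replicate 1, and multimapping reads, which were not assigned, were 70.2% and 73.8%. Mir22 took 3.44% of counts in replicate 2 and 15.0% in replicate 1, which moves the share left to every other gene. Of 12 skeletal muscle genes in the tables, 10 reached 2 CPM (reads of a gene divided by the assigned total of its library, on a common scale) in both libraries, led by Mir206. Each read spans a whole small RNA insert, so CPM are not divided by gene length. They do carry the ligation preferences of each sequence, which were not measured.

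Mir143 (ENSMUSG00000065445.3) lies on chromosome 18 of mm10 from 61649196 to 61649258, minus strand. Mir145a (ENSMUSG00000065592.2) lies 1301 bases further along that strand, from 61647825 to 61647894. No other GENCODE M21 gene overlaps either of them on any strand, so both are intergenic in that annotation. The long noncoding RNA gene Carmn ends 366 bases before Mir143 on the same strand and is known as the host of the pair. Bvht, a long noncoding RNA gene known from cardiac commitment in mouse cells, lies on the opposite strand, 1723 bases from Mir143. Mir145b (ENSMUSG00000098366.1), from 69022199 to 69022273 on the minus strand, is 7372940 bases away from Mir143 and also overlaps no other gene.

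**Figure D1:**
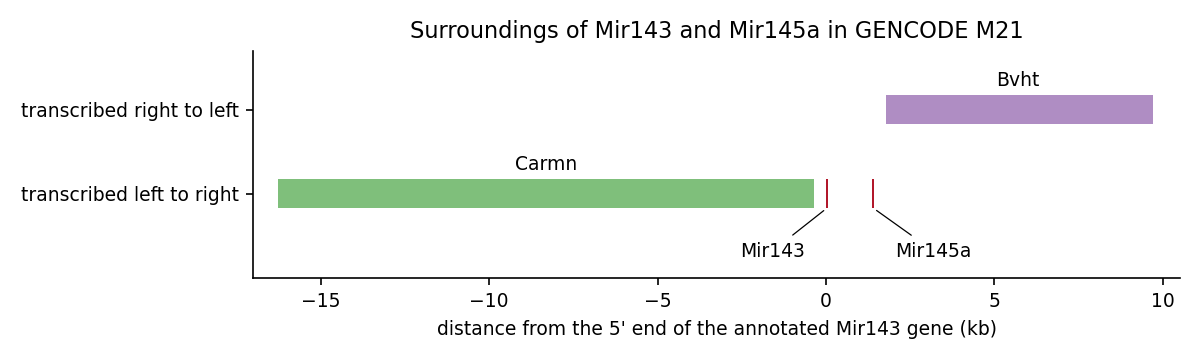
Genes around Mir143 and Mir145a drawn to scale along the minus strand of the chromosome, in kb from the 5′ end of the annotated Mir143 gene, with the direction of transcription on the vertical axis. Mir143 and Mir145a follow Carmn in its direction of transcription, 1301 bases apart, and Bvht runs the other way.

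By assigned counts, which leave out multimapping reads, Mir143 was among the most abundant microRNA genes of this muscle. It had 111163 counts in replicate 2 and 204474 in replicate 1. These were 51555 CPM in replicate 2 and 46025 CPM in replicate 1, or 5.16% (Wilson 95% interval 5.13 to 5.19) and 4.60% (4.58 to 4.62) of assigned counts. The mean was 48790 ± 3910 CPM (SD, n = 2). Both libraries held Mir143 at a like level, and it ranked 7th of all genes in replicate 2 and 4th in replicate 1. Such intervals cover counting error only, since PCR-amplified reads are not independent molecules.

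Mir145a, the partner gene, was present at a far lower level. It had 11397 counts in replicate 2 and 12527 in replicate 1, or 5286 CPM and 2820 CPM. The mean was 4053 ± 1744 CPM (SD, n = 2), and Mir145a ranked 28th in replicate 2 and 36th in replicate 1. Mir145a thus stood higher in replicate 2, by 1.87-fold in CPM, where Mir143 stood 1.12-fold higher. Mir145b had 0 counts in both libraries, which allows up to 1.39 CPM in replicate 2 and 0.675 CPM in replicate 1. These bounds hold for assigned reads and do not cover reads left out as multimapping. It was 1 of 1559 genes without a count in either library, 70.8% of the 2202.

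The counts of Mir143 and Mir145a came from their own strand. The counts without strand were the same numbers in both libraries, and no read fell on the opposite strand of any of the 3 genes. Both arms of a precursor are counted together, so the tables do not separate the 5′ and 3′ mature strands. How many of the multimapping reads belonged to these genes was not tested.

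In the order of mean levels, Mir143 stood 6th. Above it came Mir126a at 79902 ± 34670 CPM, the let-7 gene Mirlet7g at 52535 ± 12077 CPM and Mirlet7i at 49290 ± 13514 CPM. Below it came Mir23a at 41199 ± 17488 CPM, Mir23b at 37373 ± 10560 CPM and Mir206 at 36675 ± 35165 CPM. The ranges of 4 of these 6 genes over the 2 libraries overlapped that of Mir143, the exceptions being Mir126a, wholly above, and Mir23b, wholly below. Among all genes, only Mir378a and Mir126a lay above Mir143 without overlap, and 5 genes overlapped its range.

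Mir145a stood 32nd by mean level. Its neighbours above were the Hox-linked Mir196b at 5230 ± 359 CPM, Mir27b at 5093 ± 915 CPM and Mir125a at 4597 ± 994 CPM. Those below were Mir486 at 3829 ± 583 CPM, Mir423 at 3817 ± 1117 CPM and Mir196a-2 at 3676 ± 418 CPM. All 6 overlapped the range of Mir145a, as did 15 genes in all, and 25 genes lay wholly above it. The place of Mir145a in the order is therefore less well fixed than that of Mir143. Mir143 and Mir145a ranked 2 and 3 by mean level among the 57 microRNA genes on their chromosome, after Mir378a.

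Replicate 2 against replicate 1 asks how far the pair differed between libraries with the same labels. The log2 ratio, from CPM + 1 with edgeR's TMM scaling of the library sizes, was 0.26 for Mir143 (95% counting interval 0.25 to 0.27). It was 1.00 for Mir145a (0.96 to 1.04). An exact binomial test of the counts, two-sided and adjusted by Benjamini-Hochberg over the 380 genes with 10 or more counts, gave each gene an adjusted p of at most 1e-300, past the threshold of 0.05. That test takes counting error alone into account, and 61.8% of the genes tested passed it, 30.3% as higher in replicate 2. Passing it therefore says little about Mir143 and Mir145a in particular.

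The sizes of the ratios are read better against those of other genes. Over the 228 genes with 100 or more counts, the median size of the log2 ratio in either direction was 0.64, and the SD of the signed ratios was 1.13. A smaller size was found for 46 of the 228 genes (20.2%) in the case of Mir143 and for 162 (71.1%) in the case of Mir145a. Among the 47 genes with 10000 or more counts, 8 had a smaller size than Mir143 and 39 had a smaller size than Mir145a. Mir143 was thus one of the steadier abundant genes between these libraries and Mir145a one of the less steady.

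The scaling of the libraries shifts these ratios. The log2 ratio of Mir143 was 0.16 with plain totals, 0.12 with DESeq2 size factors and 0.11 with TMM over all genes, and it turned to −0.020 with plain totals that leave out Mir22, the last 2 settings chosen after seeing the data. That of Mir145a was 0.91, 0.86, 0.85 and 0.72 under the same settings. These settings moved the median gene from −0.021 to as low as −0.29. Relative to the median of the 228 genes, Mir143 stood 0.27 to 0.28 above and Mir145a 1.02 above under each of these scalings. The direction of Mir143 between the libraries is thus not fixed by these data on an absolute scale, while that of Mir145a was towards replicate 2 under every scaling run.

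**Figure D2:**
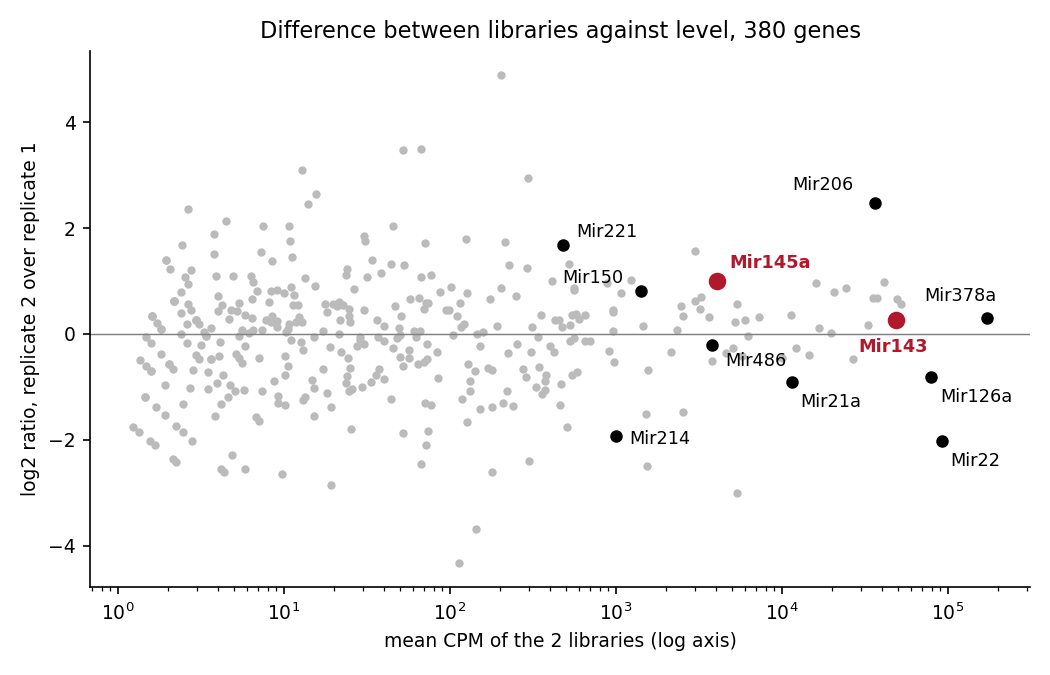
Log2 ratio of replicate 2 over replicate 1 (vertical axis) against the mean CPM of the 2 libraries (horizontal log axis) for the 380 genes with 10 or more counts, one point per gene, with named genes in black and Mir143 and Mir145a in red. Mir143 sits near 0 at 0.26 among the most abundant genes, and Mir145a sits at 1.00.

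The share of the pair is free of the scaling, since both genes come from the same library. Mir145a made up 9.30% (Wilson 95% interval 9.14 to 9.46) of the counts of Mir143 plus Mir145a in replicate 2 and 5.77% (5.68 to 5.87) in replicate 1. The mean was 7.54% ± 2.49 (SD, n = 2). Mir143 had 9.75 reads for each read of Mir145a in replicate 2 and 16.3 in replicate 1. The balance differed by 0.74 on the log2 scale (95% interval 0.70 to 0.78, Fisher's exact two-sided test of the counts, p at most 1e-300), with relatively more Mir145a in replicate 2. Together the pair took 5.68% of assigned counts in replicate 2 and 4.88% in replicate 1, a mean of 5.28% ± 0.565 (SD, n = 2).

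Other microRNA genes that neighbour each other on a strand show how usual such a gap is. Within 10 kb, 113 pairs formed by 92 genes with 100 or more counts were found, many of them sharing a gene, so the pairs are not independent. Their log2 ratios between libraries differed by 0.0041 to 3.52, with a median of 0.59, against 0.74 for Mir143 and Mir145a, and 66 of the 113 pairs (58.4%) were closer. With the TMM scaling, both genes had ratios of the same sign in 66 of the 113 pairs too, as Mir143 and Mir145a did. The sign depends on the scaling, since Mir143 turned to −0.020 with plain totals that leave out Mir22 and Mir145a stayed at 0.72. Mir221 and Mir222, 504 bases apart on chromosome X, differed by 0.35, and Mir23b and Mir27b, 154 bases apart on chromosome 13, by 0.95. The level gap within the pair was wider than usual, at 3.66 on the log2 scale (mean of the 2 libraries) against a median of 1.73 over the pairs, with 81 of 113 pairs closer in level.

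**Figure D3:**
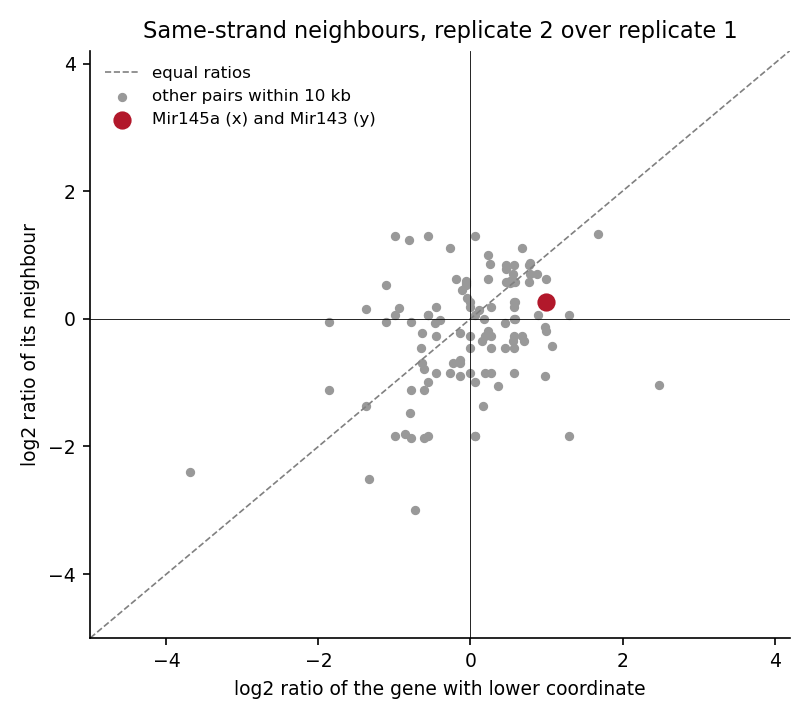
Log2 ratios of replicate 2 over replicate 1 for microRNA genes within 10 kb of each other on a strand, with the gene of lower coordinate on the horizontal axis, its neighbour on the vertical axis and one point per pair (113 pairs). The red point, with Mir145a at 1.00 and Mir143 at 0.26, lies 0.74 from the line of equal ratios, and 66 pairs lie closer.

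Mir143 was then set within each library against 5 genes linked to other cell types, which do not stand for all genes of those types. Mir126a, the microRNA of vessel endothelium encoded in Egfl7, had 55386 CPM in replicate 2 and 104418 CPM in replicate 1. Mir143 thus stood at 0.931 of Mir126a in replicate 2 and at 0.441 in replicate 1, a difference of 1.08 on the log2 scale (1.06 to 1.09). Mir206, a skeletal muscle microRNA, had 61540 CPM in replicate 2 and 11810 CPM in replicate 1, so Mir143 stood at 0.838 of Mir206 in replicate 2 and at 3.90 times it in replicate 1. The difference was −2.22 on the log2 scale (−2.24 to −2.20), and the order of Mir143 and Mir206 differed between the libraries. Other muscle genes called in the opposite direction to Mir206 had log2 ratios of −1.07 for Mir1a-2, −1.25 for Mir1a-1, −1.04 for Mir133b and −0.22 for Mir486.

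Against genes of lower level the order held in both libraries. Mir143 was 15.1 times Mir486, a gene of muscle and red cells, in replicate 2 and 10.9 times in replicate 1. These are ratios of assigned sense counts, and Mir486 had none in the counts without strand. How many reads of Mir486 were left out as multimapping was not tested, so the ratios do not show that its microRNA was scarce. It was 129.6 times the fibroblast-linked Mir214 in replicate 2 and 28.4 times in replicate 1, and 29.2 and 42.6 times the lymphocyte gene Mir150. Mir150 had a log2 ratio of 0.80 between the libraries, while the leukocyte genes Mir142 and Mir223 had −0.69 and −0.23, so the direction of Mir143 against leukocyte genes depends on the gene chosen. The same holds for fibroblast and stroma genes, where Mir214 had −1.93 and Mir140, the most abundant of them, had 1.56. The 5 differences between libraries passed Fisher's exact two-sided test of the counts, the largest p adjusted over the 5 comparisons being 8.82e-65, for Mir150. That test too takes counting error alone into account. Mir145a kept below Mir126a and Mir206 in both libraries, at 0.0954 and 0.0859 of them in replicate 2 and at 0.0270 and 0.239 of them in replicate 1. Mir145a crossed Mir486, at 1.55 times it in replicate 2 and 0.665 of it in replicate 1.

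**Figure D4:**
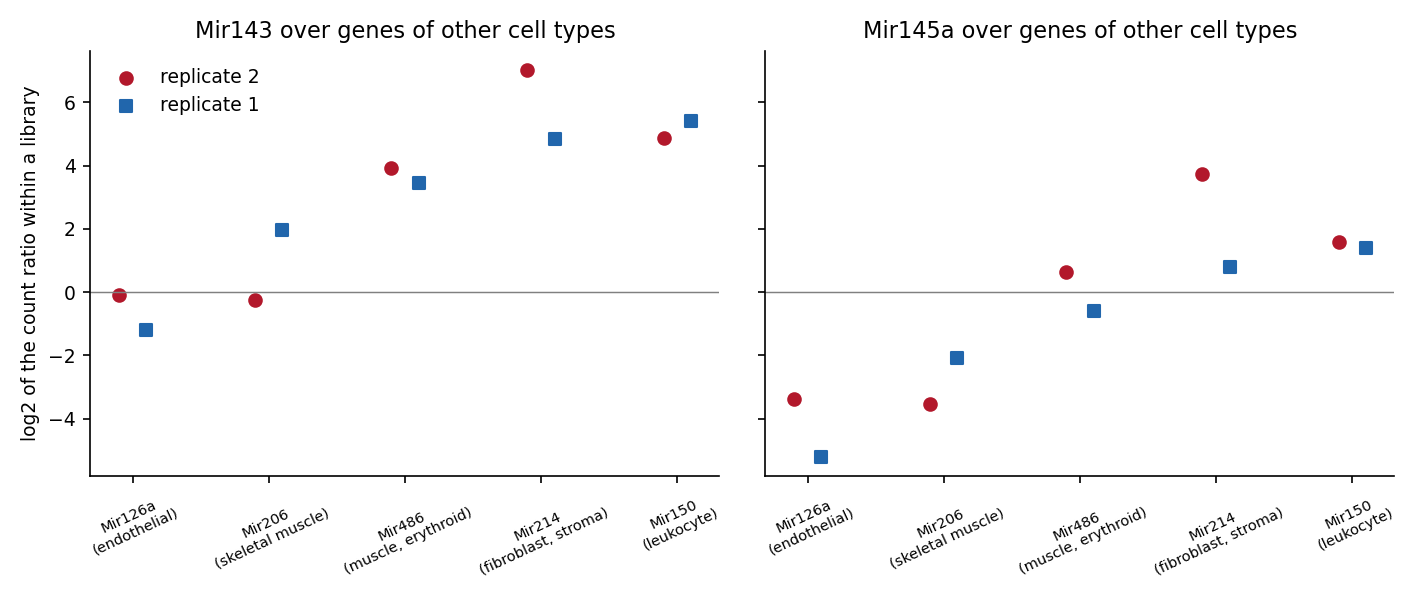
Log2 of the counts of Mir143 (left panel) and Mir145a (right panel) over those of 5 genes linked to other cell types, within replicate 2 (red circles) and replicate 1 (blue squares), with equal counts at 0. Mir143 lies above Mir486, Mir214 and Mir150 in both libraries and on opposite sides of Mir206 (log2 −0.26 in replicate 2 and 1.96 in replicate 1).

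The lists of other cell types differed between the libraries alongside the pair. The skeletal muscle list took 6.57% of counts in replicate 2 and 1.64% in replicate 1, with Mir133c of its 12 genes at 0 in both. Mir206 alone supplied 6.15% and 1.18%, and the other 11 genes 0.418% in replicate 2 and 0.461% in replicate 1. These shares count assigned reads only. Just 6 of the 12 genes were matched to a mature sequence in the RefSeq table. How many reads the list lost as multimapping was not tested, so its low shares do not show that these microRNAs were scarce. The muscle genes went both ways. Of 10 tested, 4 were higher in replicate 2 (40.0%, against 30.3% of all genes tested). These were Mir206 and the myosin intron genes Mir208a, Mir208b and Mir499. Another 4 were higher in replicate 1 (40.0%, against 31.6%) and 2 did not pass. The endothelial list, Mir126a with Mir126b at 0, took 5.54% in replicate 2 and 10.4% in replicate 1. The 5 fibroblast and stroma genes took 0.484% and 0.326%, with Mir199a-1 at 0. Mir199a-1, Mir199a-2 and Mir199b each share a mature strand with another gene. Their levels and the share of the list are uncertain, because reads that match several loci were left unassigned. Within that list Mir140, known from cartilage, had 4421 CPM in replicate 2 and 1602 CPM in replicate 1, while Mir214 went the other way at 398 and 1620 CPM.

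Blood-derived genes were low against the pair in both libraries. The 5 leukocyte genes took 0.363% of counts in replicate 2 and 0.229% in replicate 1, with Mir142b at 0 and Mir150 the highest, at 1767 and 1082 CPM. Of its 4 tested genes, Mir150 and Mir155 were higher in replicate 2, while Mir142, at 105 and 181 CPM, and Mir223, at 135 and 169 CPM, were higher in replicate 1. Over all genes tested, 30.3% were higher in replicate 2 and 31.6% in replicate 1. The 3 erythroid genes took 0.0109% in replicate 2 and 0.0777% in replicate 1, with Mir451b at 0 and Mir451a at 90.0 and 509 CPM. The neural list, with 5 of 10 genes at 0, took 0.0386% and 0.0330%, most of it Mir338 at 318 CPM in replicate 2 and 309 CPM in replicate 1. Of these 10 genes, 7 were matched to a mature sequence, and the Mir9 and Mir219a genes share theirs with another gene. Zeros in this list therefore do not show absence. The epithelial list of 7 genes, led by Mir203 at 210.1 and 141 CPM, took 0.0225% in replicate 2 and 0.0205% in replicate 1. What part these cell types had in the higher Mir145a of replicate 2 was not tested.

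Other regulators of smooth muscle state showed no common direction with the pair. Of 21 such genes in the tables, Mir143, Mir145a and Mir145b included, 20 had 10 or more counts. Of these, 9 were higher in replicate 2 (45.0%, against 30.3% of all genes tested), 8 were higher in replicate 1 (40.0%, against 31.6%) and 3 did not pass. Mir143 and Mir145a are among the 9. Calls depend on depth: in either direction 61.8% of the 380 genes passed, but 81.1% of the 228 with 100 or more counts. Their median log2 ratio was −0.15, against 0.020 over the 380 genes. The list took 13.2% of counts in replicate 2 and 12.5% in replicate 1, and Mir143 and Mir145a made up 43.0% of it in replicate 2 and 39.2% in replicate 1.

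Regulators of proliferation went both ways. Mir221 and Mir222, whose shared seed is shown above and which repress the cell cycle inhibitor Cdkn1b, were both higher in replicate 2. At 727 CPM in replicate 2 and 243 CPM in replicate 1, Mir221 had the log2 ratio 1.67 (1.56 to 1.79). That of Mir222, at 62.6 CPM in replicate 2 and 26.1 CPM in replicate 1, was 1.32 (0.99 to 1.73). Mir21a, known from growing smooth muscle, was lower in replicate 2, at 7683 CPM against 15456 CPM in replicate 1 (log2 ratio −0.92). Mir31, which promotes smooth muscle growth in rats, had 14.4 and 8.78 CPM and was called at an adjusted p of 0.0450 (exact binomial test). That call was lost with plain totals (0.0661) and with DESeq2 size factors (0.0881).

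By assigned counts, Mir143 exceeded the most abundant of these regulators in both libraries. Mir23b had 44840 CPM in replicate 2 and 29905 CPM in replicate 1 (log2 ratio 0.68). Mir27b, its neighbour and a gene known from vessel sprouting, had 4446 and 5740 CPM (−0.28), close to the level of Mir145a. Mir10a, needed for smooth muscle differentiation of mouse embryonic stem cells, had 3630 and 2777 CPM (0.48). Mir204, a repressor of Runx2, had 128 and 213 CPM (−0.64).

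The mir-29 genes, repressors of collagen messenger RNAs, were lower in replicate 2 or did not pass. Mir29a had 12074 CPM in replicate 2 and 17003 CPM in replicate 1 (−0.40), and Mir29c had 1273 and 3796 CPM (−1.48). Mir29b-2 had 16.7 and 31.7 CPM (−0.80), while Mir29b-1 had 48.2 and 52.2 CPM and did not pass (adjusted p = 0.987, exact binomial test). Both Mir29b genes share a mature strand. Fibroblast and vessel levels of the family cannot be told apart in whole muscle.

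The loci with identical mature strands gave low and uneven counts. Mir24-1 had 104 CPM in replicate 2 and 50.9 CPM in replicate 1 (1.11), while Mir24-2, with the same miR-24-3p, had 89.0 and 178 CPM (−0.90). Mir26a-1 had 124 and 10.8 CPM (3.50) and Mir26a-2, with the same miR-26a-5p, had 99.7 and 159 CPM (−0.58). Their levels are uncertain, because reads that match both loci were left unassigned. Mir133a-1 and Mir133a-2 had 11.1 and 2.32 CPM in replicate 2 and 14.9 and 3.83 CPM in replicate 1, and did not pass. Of the 21 genes, 16 were matched to a mature sequence in the RefSeq table, and 6 of them share a mature strand with another gene. Those 6 are the Mir24, Mir26a and Mir29b genes. For the unmatched genes, Mir143, Mir145a and Mir145b among them, sharing could not be checked.

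**Figure D5:**
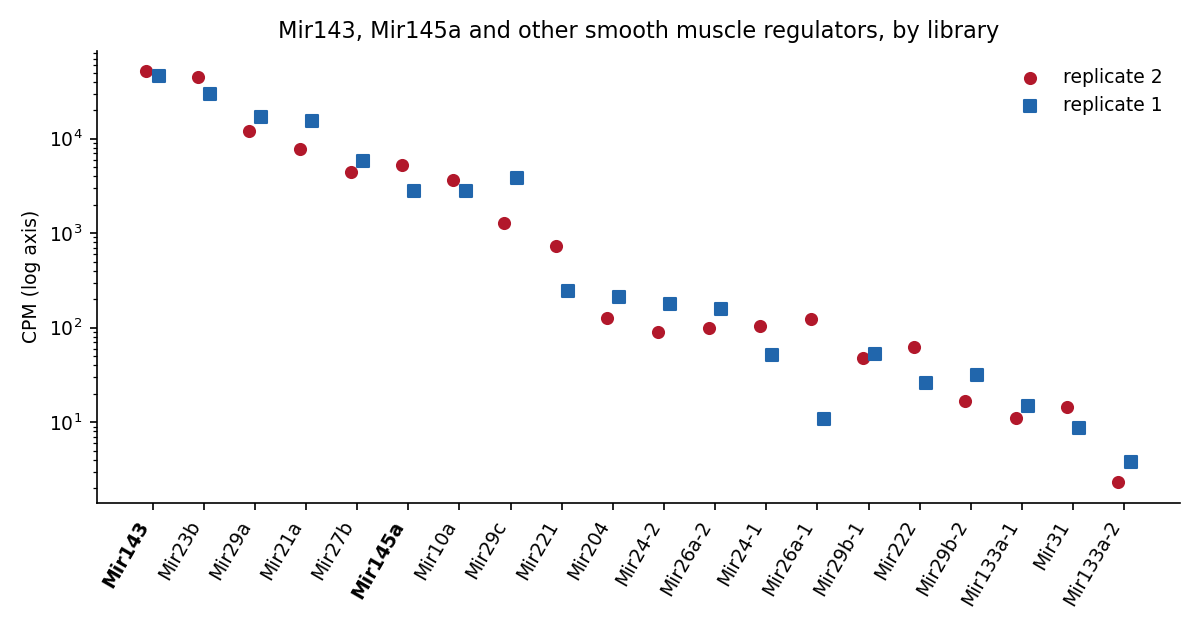
CPM (vertical log axis) of the 20 smooth muscle regulators with counts, ordered by mean level, in replicate 2 (red circles) and replicate 1 (blue squares), with Mir143 and Mir145a in bold. Mir143 is the highest gene in both libraries at 51555 CPM in replicate 2 and 46025 CPM in replicate 1, and Mir145a is one of 9 genes called higher in replicate 2.

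Likeness was measured as the absolute difference of log2 ratios over the 2 libraries, among genes with 100 or more counts. Closest to Mir143 were Mir744 (log2 ratio 0.26), Mirlet7c-2 (0.26), Mir138-2 (0.26), Mir485 (0.26) and Mir335 (0.27). Of these, Mir138-2 and Mir485 had few counts, and their intervals reached from −0.26 to 0.79 and from −0.13 to 0.66. Closest to Mir145a were Mir351 (1.00), Mir23a (0.99), Mir155 (1.02), Mir652 (0.97) and Mir139 (0.96). With 2 libraries this measure rests on a single difference for each gene, and a gene can lie close by coincidence.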

How the data were processed

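The deposited values are raw read counts per microRNA gene, 1 table per library, on mm10 with GENCODE M21 per the readmes beside the files. For the aligner, the adapter trimming and the counter, no name is given in the sources used here. Judged from its values, each of the authors' tables holds unstranded, sense and antisense counts, of which the sense counts entered all main results. Reads assigned to no gene, 80.2% of replicate 2 and 84.3% of replicate 1, stayed out of library sizes and tests. All gene identifiers matched M21.

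CPM used the assigned counts. TMM factors came from genes with 10 or more counts summed, and log2 ratios added 1 CPM. Exact two-sided binomial tests of the counts, given the scaled library sizes, were adjusted by Benjamini-Hochberg over 380 genes, with 0.05 as the threshold. For single ratios the 95% intervals are Clopper-Pearson, and between 2 genes they are Wald intervals of the counts. P-values below 1e-300 were set to it. The 5 tests of Mir143 against other cell types' genes were adjusted over the 5.

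The genes described and the 9 lists were chosen with earlier results of these data known. Named were the 3 genes, the 3 genes above and below Mir143 and Mir145a by mean CPM, the 5 nearest each in log2 ratio, every smooth muscle regulator at 2 CPM or more in both libraries, and the highest gene of each other list. Mir146a, Mir142hg and Mir486b of the lists were not analysed here. The binomial test was tried on simulated counts with set fold changes and counting error alone. That setting cannot show how the test behaves with further variation between libraries. Computation used Python 3.11.15 (scipy 1.17.1, pandas 2.3.3, numpy 2.4.6; figures by matplotlib 3.10.9). Library scaling used DESeq2 1.42.0 and edgeR 4.0.16 under R 4.3.3.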

Additional observations from a re-analysis of the deposited data

How the results depend on the processing

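The mean level of Mir143, 48790 CPM, became 8713 CPM and that of Mir145a 745 CPM when all reads of the tables were the total. For Mir143 it became 59052 CPM without Mir378a in the totals, 53758 ± 521 CPM (SD, n = 2) without Mir22, an alternative chosen after seeing the data, and 67647 CPM with the counts without strand. Single libraries ranged from 46025 to 51555 CPM for Mir143, from 2820 to 5286 CPM for Mir145a and from 5.77% to 9.30% for the share of Mir145a in the pair. The log2 ratio of Mir143 reversed to −0.020 with plain totals without Mir22. Under that setting so did those of Mir744 (−0.021), Mir196b (−0.043), Mirlet7c-2 (−0.017), Mir335 (−0.0060), Mir485 (−0.0055), Mir138-2 (−0.0043) and Mir338 (−0.14, from 0.13), the last also with DESeq2 size factors (−0.0021) and TMM over all genes (−0.012). Other pseudocounts and count filters left Mir143 at 0.26 and Mir145a at 1.00. With neighbours of 10 or more counts, 44.9% of pairs were closer than Mir143 and Mir145a. Against Mir126a the difference became 2.58 and did not pass with the counts without strand, where Mir126a had 1 count in replicate 2 and 11 in replicate 1, and Mir486 had none and gave no value; the cause was not tested. Without Mir378a the shares of the pair, the smooth muscle regulators, the neural and the epithelial lists became 6.40%, 15.5%, 0.0433% and 0.0260%, and without Mir22 those of the smooth muscle regulators and the epithelial list 14.2% and 0.0237%. No paired analysis was possible because the labels give 1 group. With 2 libraries no spread between animals can be estimated, and, multimapping reads apart, Mir145b cannot be told from absent below 1.39 CPM.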
